A study of Mus musculus with 8 samples.

Results

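Messenger RNA of 10 mouse genes of the cyclins and cyclin-dependent kinases of G1 and mitosis was followed through 8 libraries of heart muscle cells. The 10 genes are a list of symbols, and no measured value enters the rule that picks them, though earlier results of these data were known when the list was drawn up. They are Cdk1, Cdk4, Ccnb1 and Ccnd1, which from the study are known to be the 4 cell cycle genes carried by the injected virus, and Ccnd2, Ccnd3, Cdk2, Cdk6, Ccne1 and Ccne2, which were not injected. All 10 are among the 37991 genes of the deposited count table, and all 10 were among the 12466 genes with enough reads to be tested.

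Both groups came from alpha-MHC MERCREMER MADM mice, in which an inducible Cre recombinase is made under the alpha myosin heavy chain promoter of heart muscle cells. MADM (mosaic analysis with double markers) joins split fluorescent markers by recombination between homologous chromosomes, so that division after recombination can leave a daughter cell with 1 color. All hearts had received adenovirus with the 4 cell cycle genes, and cells were isolated 2 weeks later. The 4 single colored libraries hold cells that, per the labels, had passed through the cell cycle. The 4 double colored libraries hold cells given the same treatment that, per the labels, had not. The double colored cells are therefore treated cells, and no uninjected heart is analysed here. Whether some double colored cells had also divided was not tested. The labels give neither age nor sex, and they do not say whether replicates came from separate animals, so the tests reflect only how much these libraries vary, which may be technical. Neither the species of the injected coding sequences is given in the sources used here, nor whether transcripts of the virus would have been counted at the mouse genes.

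Progress through the cell cycle depends on kinases that are active when bound to a cyclin. The D cyclins (Ccnd1, Ccnd2, Ccnd3) activate Cdk4 and Cdk6, which phosphorylate the retinoblastoma protein and release E2F transcription factors. The E cyclins (Ccne1, Ccne2), themselves E2F targets, activate Cdk2 at the entry to DNA synthesis, and Ccnb1 with Cdk1 drives the entry to mitosis. Adult heart muscle cells have mostly left the cell cycle, and forced expression of such genes has been used to bring them back into it.

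Of the genes with a reference promoter, 3 of the injected genes are shown for their letters, since Cdk1 and Ccnb1 belong to the mitotic genes and Cdk4 to the G1 genes. Promoters were matched by symbol in RefSeq (GRCm38.p6, a later build than the mm9 of the counts) for 7 of the 10 genes. Each sequence is the 250 bases before the gene start, on the gene's strand, at chr10:69352913-69353162 (minus strand) for Cdk1, chr13:100786487-100786736 (minus strand) for Ccnb1 and chr10:127063285-127063534 (plus strand) for Cdk4. Capitals mark the motifs searched on both strands, namely the cell cycle homology region of G2 and mitotic genes (TTTGAA and the variant form TTCGAA), the CCAAT box, the E2F-like word TTGGCGC, its variant form TTCGCGC and its further variant form TTCCCGC, and the E-box, which reads CACGTG and was added after the sequences were seen.
Cdk1: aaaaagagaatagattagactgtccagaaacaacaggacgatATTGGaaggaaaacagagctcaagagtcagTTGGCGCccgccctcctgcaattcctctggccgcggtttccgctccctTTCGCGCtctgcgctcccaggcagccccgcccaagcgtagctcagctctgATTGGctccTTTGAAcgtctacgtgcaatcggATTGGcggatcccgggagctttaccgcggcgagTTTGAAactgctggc
Ccnb1: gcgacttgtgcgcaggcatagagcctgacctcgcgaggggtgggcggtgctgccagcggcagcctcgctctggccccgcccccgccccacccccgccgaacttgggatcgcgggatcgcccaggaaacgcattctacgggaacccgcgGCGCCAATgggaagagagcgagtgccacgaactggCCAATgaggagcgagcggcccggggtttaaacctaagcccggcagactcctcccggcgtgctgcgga
Cdk4: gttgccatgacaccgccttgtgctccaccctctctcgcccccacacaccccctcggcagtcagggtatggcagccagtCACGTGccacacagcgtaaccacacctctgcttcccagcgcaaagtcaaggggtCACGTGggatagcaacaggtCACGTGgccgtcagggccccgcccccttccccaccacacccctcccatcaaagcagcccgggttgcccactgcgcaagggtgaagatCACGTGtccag
The Cdk1 promoter held 2 copies of TTTGAA, with first bases at −71 and −15 from the start, 3 CCAAT boxes on the opposite strand at −208, −80 and −48, and 2 E2F-like words at −178 and −130. Ccnb1, its partner cyclin, had 2 CCAAT boxes at −99 and −67 and 1 E2F-like word on the opposite strand at −102 that overlaps the first of them. Neither TTTGAA nor TTCGAA was found in this window of Ccnb1, and other forms of the cell cycle homology region were not searched. Cdk4 carried 4 E-boxes at −172, −118, −98 and −11 and none of the other motifs. Among 32851 promoters of the same length, 17.1% held TTTGAA or TTCGAA, 33.8% a CCAAT box, 6.69% an E2F-like word and 6.02% an E-box. TTTGAA or TTCGAA stood together with a CCAAT box in 6.02%, and 4 or more E-boxes stood in 0.0213%. In the other matched genes, Cdk2 had 1 CCAAT box and 2 E2F-like words, Cdk6 had 1 E-box, 1 of 2 Ccnd3 starts had a CCAAT box, and Ccne1 had none of the motifs. These matches describe letters, not binding.

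The libraries held 23820700 to 30082278 counted reads. Mitochondrially encoded genes took 77.5 to 85.9% of them in single colored and 84.2 to 88.3% in double colored libraries, which left 3750616 to 6112595 and 3503353 to 3850391 nuclear reads. Levels are given in CPM, a gene's reads over the counted reads of its library on the usual per-1e6 scale, adjusted by TMM (trimmed mean of M values) factors, with the mitochondrial reads in the total, so that 1 CPM stood for 22.0 to 38.4 reads. The heart muscle label was checked against 9 contractile and calcium-handling genes (Myh6, Tnnt2, Tnni3, Actc1, Ryr2, Pln, Atp2a2, Mb and Ttn), which summed to 14006 to 25731 CPM in single colored and 22276 to 29836 CPM in double colored libraries with none at 0. Of 11 leukocyte genes 8 were higher in single colored cells (edgeR adjusted p under 0.05), as were 2.32% of all tested genes. The 8 include Cd3g and Nkg7, which averaged 0.0872 and 0.225 CPM in double colored libraries, under the filter minimum of 0.368 CPM. Both passed the filter chiefly through the group where they were higher. The 11 genes summed to 233 to 405 CPM in single colored and 101 to 145 CPM in double colored libraries, without overlap. Of these genes 1, Cd3g, was at 0 in 1 double colored library. Of 6 fibroblast genes 1, Col1a1, was higher by edgeR and DESeq2 and 0 by limma-voom. At an unadjusted p under 0.05 there were 3 by edgeR (15.1% of all genes), 3 by DESeq2 and 2 by limma-voom. Log2 fold changes were positive for 5 of the 6, with a median of 1.05. They were 1.76 for Col1a1, 1.44 for Col1a2, 1.09 for Postn, 1.00 for Col3a1, 0.09 for Pdgfra and −0.10 for Dcn. The fibroblast sums were 601 to 1794 CPM in single colored and 277 to 704 CPM in double colored libraries, with overlap. Bulk libraries cannot tell fewer cells of a type from less RNA per cell.

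None of the 10 cyclin and kinase genes passed the test between single and double colored cells, and their log2 fold changes ran from −0.35 (Ccnd3) to 1.35 (Ccnb1). By edgeR's quasi-likelihood test, 0 of 10 passed an adjusted p of 0.05, where 2.48% of all 12466 tested genes did (309 genes, of which 289, or 2.32% of all, were higher and 20, or 0.16%, lower). At an unadjusted p under 0.05 the count was 0 of 10, against 15.1% of all genes. DESeq2's Wald test and limma-voom also called 0 of 10 (4.46% and 2.03% of all genes), each with 1 gene, Ccnb1, at an unadjusted p under 0.05. With the replicate number as a block, 0 of 10 passed, where 7.53% of all genes did, and 2 of 10, Ccnb1 and Ccnd2, had an unadjusted p under 0.05, against 20.7% of all genes. Library totals alone called 2 of 10, Ccnb1 and Ccnd2, and 11.2% of all genes. The log2 fold changes of single over double colored cells were positive for 5 and negative for 5 of the genes, with a median of 0.003. Of all tested genes 49.4% were positive, with a median of −0.005. In 1 of the 10, Ccnd2, the libraries of the groups did not overlap, which held for 9.14% of all tested genes in either direction.

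**Figure D1:**
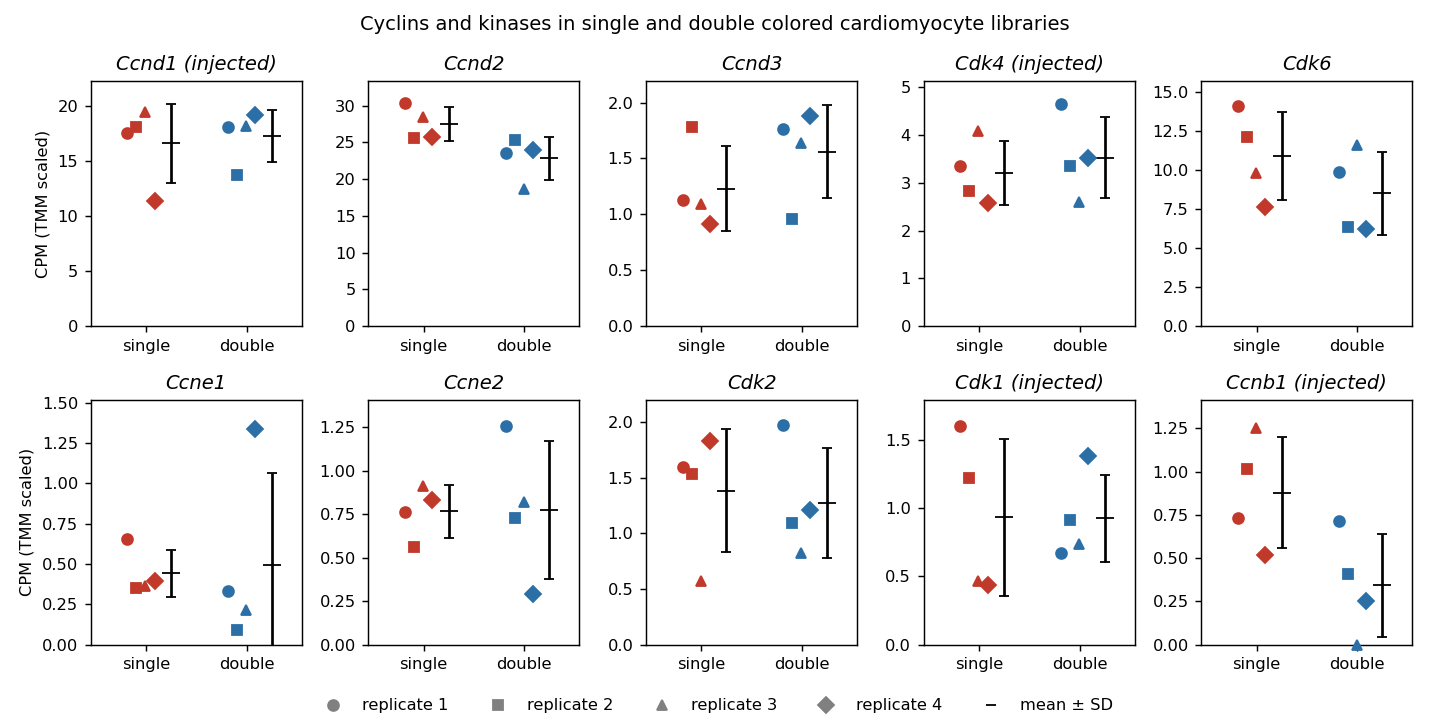
CPM with TMM scaling of the 10 genes in 4 single colored libraries (red) and 4 double colored libraries (blue), with the marker shape giving the replicate number and bars giving mean ± SD (n = 4 each, cut at 0). The groups overlap in every panel but that of Ccnd2, and the highest Ccne1 value, 1.34 CPM, and the Ccnb1 value of 0 both belong to double colored libraries.

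Ccnd1, the injected D cyclin (chromosome 7, 152115836 to 152125774 in mm9, minus strand), stood at 17.5, 18.0, 19.4 and 11.4 CPM in single colored replicates 1 to 4 and at 18.0, 13.7, 18.1 and 19.1 CPM in double colored replicates 1 to 4. The lowest library was single colored replicate 4, and the other 3 single colored libraries lay inside or next to the double colored range. Single over double colored, Ccnd1 had a log2 fold change of −0.06 ± 0.17 (SE, 95% interval −0.42 to 0.31, edgeR adjusted p = 0.932), higher in 2 of 4 numbered pairs. Of the Ccnd1 exon bases, 21.3% are shared with LTO1 on the opposite strand, and reads there cannot be told apart, since no source used here says whether counting used strand.

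Ccnd2, a D cyclin that was not injected (chromosome 6, 127075797 to 127101066, minus strand), had the most reads of the 10 genes. It stood at 30.3, 25.5, 28.5 and 25.8 CPM in single colored libraries and at 23.6, 25.3, 18.6 and 23.9 CPM in double colored libraries. All single colored libraries lay above all double colored ones, though the nearest pair of values, 25.5 and 25.3 CPM, differed by less than either group's SD. Single colored libraries averaged 27.5 ± 2.29 CPM and double colored ones 22.9 ± 2.92 CPM (SD, n = 4 each). The log2 fold change was 0.27 ± 0.14 (95% interval −0.03 to 0.57, edgeR quasi-likelihood test over all genes, adjusted p = 0.399), higher in 4 of 4 pairs. With the replicate block it was 0.27 (edgeR adjusted p = 0.231). With libraries scaled by their totals alone it was 0.79 and passed the threshold (edgeR adjusted p = 0.0304), in a setting that moved the median of all genes to 0.48 and left Ccnd2 at 0.30 above that median.

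Ccnd3, the third D cyclin (chromosome 17, 47642000 to 47736632, plus strand), was far lower, at 1.13, 1.78, 1.09 and 0.913 CPM in single colored and 1.76, 0.954, 1.64 and 1.88 CPM in double colored libraries. In each group 1 library, replicate 2, ran against the other 3, so the groups overlapped. Its log2 fold change was −0.35 ± 0.35 (95% interval −1.08 to 0.39, edgeR adjusted p = 0.712). It was 0.10 with library totals alone, −0.58 if single colored replicate 2 was left out, −0.52 if double colored replicate 2 was, and −0.75 if both were. Exons of Bysl, on the opposite strand, cover 15.7% of the Ccnd3 exon bases.

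The D cyclins were also compared as a composition, reads per kb of exon of each over the sum of the 3. Ccnd1 made up 44.2 ± 4.73% in single colored and 48.8 ± 4.86% in double colored libraries (SD, n = 4 each). Ccnd2 made up 50.2 ± 5.38% and 43.8 ± 6.36%, and Ccnd3 5.62 ± 1.55% and 7.45 ± 1.63%. The ranges of the groups overlapped for all 3, and Ccnd3 did not exceed 8.35% in any of the 8 libraries.

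**Figure D2:**
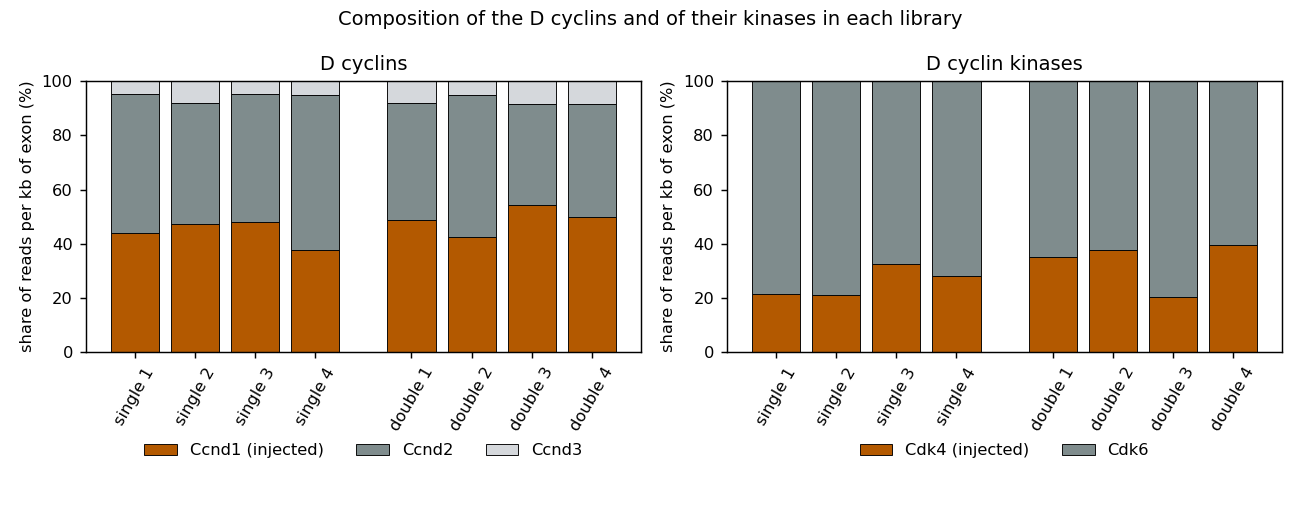
Share of reads per kb of exon taken by each D cyclin (left) and by Cdk4 and Cdk6 (right) in each library, in percent, with single colored libraries left of double colored ones. The Ccnd1 share runs from 37.5 to 48.0% in single colored and 42.4 to 54.2% in double colored libraries, and the Cdk4 share from 21.2 to 32.4% and 20.5 to 39.5%.

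Cdk4, the injected kinase of the D cyclins (chromosome 10, 126500590 to 126504976, plus strand), whose promoter carries the 4 E-boxes above, stood at 3.35, 2.83, 4.09 and 2.58 CPM in single colored and 4.65, 3.36, 2.59 and 3.51 CPM in double colored libraries. The groups covered nearly the same range, with both extremes of the 8 libraries in replicate 4 of the single colored and replicate 1 of the double colored cells. For Cdk4 the log2 fold change was −0.13 ± 0.24 (95% interval −0.65 to 0.39, edgeR adjusted p = 0.865), and 0.41 with library totals alone. Tspan31 exons on the opposite strand cover 18.6% of the Cdk4 exon bases.

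Cdk6, the other D cyclin kinase (chromosome 5, 3343893 to 3523218, plus strand), was not injected and stood at 14.1, 12.1, 9.78 and 7.62 CPM in single colored and 9.84, 6.36, 11.6 and 6.19 CPM in double colored libraries. The 2 highest libraries were single colored replicates 1 and 2 and the 2 lowest were double colored replicates 2 and 4, with the rest overlapping. Its log2 fold change was 0.36 ± 0.23 (95% interval −0.13 to 0.85, edgeR adjusted p = 0.500), higher in 3 of 4 pairs, and it became 0.21 with single colored replicate 1 left out, 0.23 with double colored replicate 4 left out and 0.54 with double colored replicate 3 left out. Cdk4 made up 25.8 ± 5.45% of the per-kb sum of Cdk4 and Cdk6 in single colored and 33.2 ± 8.69% in double colored libraries (SD, n = 4 each). Cdk6, the kinase that was not injected, was the more abundant per kb in each of the 8 libraries. Lengths here count every exon base annotated for a gene (3249 for Cdk4, 3735 for Cdk6). Transcript lengths were not measured, so the order between genes rests on these lengths.

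The E cyclins were near the lower limit of what these libraries resolve. Ccne1 (chromosome 7, 38883003 to 38892553, minus strand) had 25, 10, 14 and 10 reads in single colored and 8, 2, 5 and 32 reads in double colored libraries, or 0.655, 0.349, 0.364 and 0.397 CPM against 0.335, 0.0909, 0.216 and 1.34 CPM. Double colored replicate 4 alone held 32 of the 47 reads of its group, above all single colored libraries, and the other 3 double colored libraries lay below all of them. For Ccne1 this gave a log2 fold change of −0.16 ± 0.66 (95% interval −1.57 to 1.24, edgeR adjusted p = 0.950), and without that library it was 1.02 (edgeR adjusted p = 0.617). Ccne1 reached the read minimum for testing in 3 single colored libraries and in 1 double colored library, replicate 4.

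Ccne2 (chromosome 4, 11118498 to 11131926, plus strand) stood at 0.760, 0.558, 0.911 and 0.833 CPM in single colored and 1.26, 0.727, 0.821 and 0.293 CPM in double colored libraries. Both the highest and the lowest library were double colored, replicates 1 and 4. With that spread the log2 fold change was −0.01 ± 0.47 (95% interval −0.9999 to 0.97, edgeR adjusted p = 0.993). Ints8 exons on the opposite strand cover 17.4% of its exon bases, and Ints8 had 170 to 289 reads in single colored and 166 to 178 reads in double colored libraries, against 7 to 35 reads of Ccne2. Within the E cyclins, Ccne1 took 42.8 ± 8.16% of the per-kb sum in single colored and 37.9 ± 32.4% in double colored libraries (SD, n = 4 each), the wide spread coming with 85.7% in double colored replicate 4 and 14.1 to 25.9% in the other 3.

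Cdk2, their kinase (chromosome 10, 128134995 to 128142107, minus strand), stood at 1.60, 1.54, 0.572 and 1.83 CPM in single colored and 1.97, 1.09, 0.821 and 1.21 CPM in double colored libraries. Its lowest library was single colored replicate 3 and its highest double colored replicate 1, so the groups overlapped almost fully. The log2 fold change was 0.11 ± 0.40 (95% interval −0.75 to 0.96, edgeR adjusted p = 0.944), higher in 2 of 4 pairs.

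Cdk1, the injected mitotic kinase (chromosome 10, 68799383 to 68815686, minus strand), stood at 1.60, 1.22, 0.468 and 0.437 CPM in single colored and 0.670, 0.909, 0.735 and 1.38 CPM in double colored libraries. Single colored replicate 1 stood above all 4 double colored libraries, replicate 2 above 3 of them, and replicates 3 and 4 below all of them. Means were nearly equal, 0.931 ± 0.574 and 0.923 ± 0.320 CPM (SD, n = 4 each), and the log2 fold change was 0.02 ± 0.47 (95% interval −0.98 to 1.02, edgeR adjusted p = 0.991). Its sign changed with limma-voom (−0.13) and with the replicate number as a block (−0.11).

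Ccnb1, the injected mitotic cyclin and partner of Cdk1 (chromosome 13, 101548605 to 101556525, minus strand), had the largest log2 fold change of the 10 genes and few reads. Single colored libraries held 28, 29, 48 and 13 reads (0.734, 1.01, 1.25 and 0.516 CPM) and double colored libraries 17, 9, 0 and 6 reads (0.712, 0.409, 0 and 0.251 CPM). The count of 0, in double colored replicate 3, allows a level of up to 0.130 CPM (3 reads, counting error alone). Single colored libraries were higher in 4 of 4 pairs, though replicate 1 of the double colored group, at 0.712 CPM, lay above single colored replicate 4. The log2 fold change was 1.35 ± 0.66 (95% interval −0.05 to 2.75, edgeR adjusted p = 0.356), and with the replicate block it was 1.499 (edgeR adjusted p = 0.224).

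Ccnb1 reached the read minimum of the filter in 4 single colored but 1 double colored library, so it was tested through the group where it was higher. With library totals alone its log2 fold change was 1.91 (edgeR adjusted p = 0.0469), 1.42 above the median of all genes in that setting. Without double colored replicate 3 it was 0.94 and without both replicates 3 it was 0.72, against 1.99 without double colored replicate 1 and 2.07 without both replicates 1, and none of these passed the threshold.

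**Figure D3:**
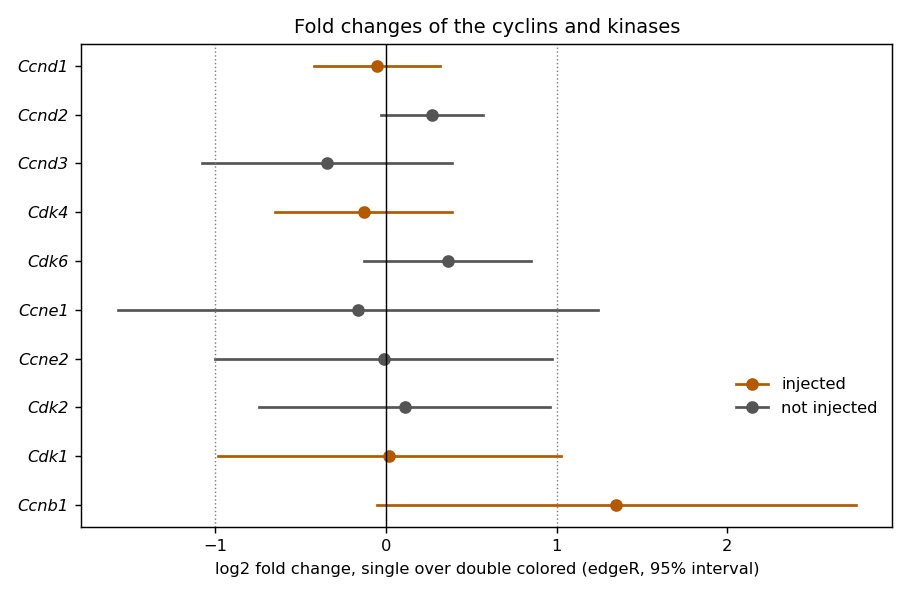
Log2 fold change of single over double colored cells for the 10 genes (edgeR, points) with 95% intervals (lines), injected genes in orange and the others in grey. Every interval crosses 0, 6 of them lie within ±1 (that of Ccne2 only just), and that of Ccnb1 reaches from −0.05 to 2.75.

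The intervals set what these libraries can show. For Ccnd1, Ccnd2, Cdk4, Cdk6, Cdk2 and Ccne2 the 95% interval lay within ±1 on the log2 scale. That of Ccne2 did so only just, with a lower end of −0.9999. A p above the threshold does not show that the groups were alike. For Cdk1 and Ccnd3 the interval passed 1 in 1 direction by under 0.1. For Ccne1 and Ccnb1, with 59 and 118 reads in all single colored and 47 and 32 reads in all double colored libraries, changes of 1 on the log2 scale lay inside the interval.

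Genes were ordered by level per length, with all annotated exon bases as the length. The D cyclins Ccnd1 and Ccnd2 and the kinase Cdk6 came first in both groups, and Cdk1, Ccnb1 and the E cyclins came last. In single colored libraries mean levels in CPM per kb of exon ran from Ccnd2 (4.83) through Ccnd1 (4.32), Cdk6 (2.92), Cdk4 (0.988), Cdk2 (0.569), Ccnd3 (0.545), Cdk1 (0.270), Ccne2 (0.219) and Ccnb1 (0.208) to Ccne1 (0.166). In double colored libraries they ran from Ccnd1 (4.49) through Ccnd2 (4.01), Cdk6 (2.27), Cdk4 (1.09), Ccnd3 (0.691), Cdk2 (0.523), Cdk1 (0.268), Ccne2 (0.222) and Ccne1 (0.186) to Ccnb1 (0.0813). Neighbours whose libraries did not overlap were Cdk6 and Cdk4 in both groups, Cdk4 and Cdk2 in single colored cells, and Ccnd2 and Cdk6 in double colored cells. All other neighbours overlapped. The Ccnd2 level per kb lay above that of 90.1% of tested genes in single colored and 87.2% in double colored cells, and the Ccnb1 level above 9.94% and 2.27%.

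The injected genes were set against those not injected. Median log2 fold changes were −0.02 over the 4 injected genes and 0.05 over the 6 others, with 2 of 4 and 3 of 6 positive. Summed levels of the injected genes were 14.9 to 25.2 CPM in single colored and 18.4 to 24.2 CPM in double colored libraries, and those of the other 6 were 37.3 to 48.6 CPM and 33.7 to 38.7 CPM. The injected genes made up 33.6 ± 4.08% of the reads of all 10 in single colored and 38.2 ± 2.60% in double colored libraries (SD, n = 4 each), with ranges of 28.5 to 37.9% and 34.8 to 41.0%. These ranges overlap, and most injected-gene reads in each library were of Ccnd1.

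For each injected gene the tested genes with the most similar pattern were found by Pearson's r of TMM log2 CPM over the 8 libraries, as a description without a test. For Cdk1 they were Mtcl1 (r = 0.941), Angpt2 (0.936) and Elp2 (0.927), and for Ccnb1 they were Stn1 (0.982), Mcrip1 (0.981) and Atp6v1a (0.965). Cdk4 ran closest to Cir1 (0.949), Rad17 (0.947) and Plxdc1 (0.946), and Ccnd1 to Psph (0.944), Camkmt (0.943) and Slc35f6 (0.942). None of the 10 cyclin and kinase genes was among them. Each is the closest 3 of 12466 genes over 8 libraries that share group and depth differences.

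The next genes of the pathway were read from a list of 44 regulators, partners and targets of these kinases, of which 34 were tested. By edgeR 0 of 34 passed the threshold, against 2.48% of all genes, DESeq2 called 1 (E2f6, lower) and limma-voom 0. With the replicate block 4 passed by edgeR, against 7.53% of all genes. At an unadjusted p under 0.05 there were 7 without the block, namely 5 higher (9.02% of all genes) and 2 lower (6.1% of all genes). DESeq2 and limma-voom gave 7 and 6. The log2 fold change was positive for 24 of 34 genes (70.6%), with a median of 0.21. Groups did not overlap for 1 gene higher (E2f3) and 2 genes lower (E2f6 and Fbxw7) in single colored cells, where 5.37% and 3.76% of all genes did so.

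Among the S phase and mitotic cyclins of that list, Ccna2, which partners Cdk2 and Cdk1, stood at 5.16, 4.47, 3.04 and 4.17 CPM in single colored and 3.14, 1.77, 0.821 and 2.72 CPM in double colored libraries. Its groups met at 1 point, single colored replicate 3 lying just below double colored replicate 1. For Ccna2 the log2 fold change was 0.99 ± 0.33 (edgeR adjusted p = 0.145), and with the replicate block the adjusted p was 0.0131. Ccnb2, a B cyclin like Ccnb1, stood at 2.62, 2.09, 1.93 and 2.54 CPM in single colored and 1.05, 1.09, 2.03 and 0.460 CPM in double colored libraries, with double colored replicate 3 inside the single colored range. Its log2 fold change was 0.99 ± 0.37 (edgeR adjusted p = 0.207).

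Among the E2F factors, which act below the D cyclin kinases, E2f3, an activating member, stood at 5.71, 5.30, 5.62 and 5.56 CPM in single colored and 4.19, 3.41, 3.85 and 2.34 CPM in double colored libraries. The groups were apart, and the single colored values were close together. Its log2 fold change was 0.69 ± 0.21 (edgeR adjusted p = 0.114, and 0.0457 with the replicate block). E2f6, a repressor that acts without the retinoblastoma protein, stood at 7.89, 12.4, 10.7 and 9.52 CPM in single colored and 15.1, 13.0, 16.9 and 15.5 CPM in double colored libraries. The groups were again apart. For E2f6 the log2 fold change stood at −0.57 ± 0.17 (edgeR adjusted p = 0.0890, with the block 0.0251), and at −0.12 with library totals alone.

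Fbxw7, the ubiquitin ligase subunit that marks cyclin E for degradation, stood at 13.6, 19.0, 17.7 and 15.1 CPM in single colored and 22.1, 24.4, 21.7 and 19.5 CPM in double colored libraries. The groups did not overlap, and the log2 fold change was −0.42 ± 0.15 (edgeR adjusted p = 0.169, and 0.0447 with the block), turning to 0.06 with library totals alone. With the replicate block 4 of the 34 pathway genes passed (Ccna2 and E2f3 higher, E2f6 and Fbxw7 lower) and still 0 of the 10 cyclin and kinase genes, while 939 of all genes (7.53%) did. Rbl1, a relative of the retinoblastoma protein, and Foxm1, an activator of mitotic genes, had log2 fold changes of 0.82 ± 0.32 and 0.71 ± 0.33 (edgeR adjusted p = 0.229 and 0.318). The next in the lower direction were Tfdp2 (−0.16 ± 0.16), an E2F partner, Wee1 (−0.32 ± 0.37), the kinase that inhibits Cdk1, and Cdkn1c (−0.27 ± 0.33), an inhibitor of G1 kinases, none of which passed and all of which turned positive with library totals alone.

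**Figure D4:**
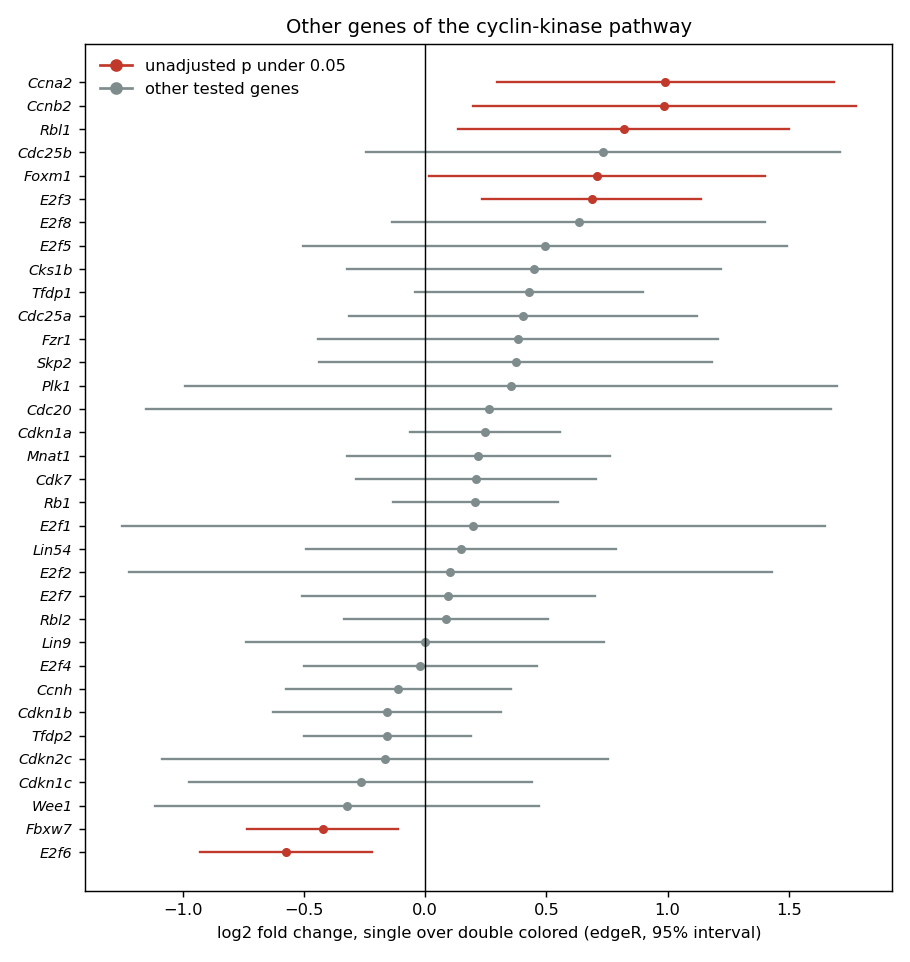
Log2 fold change of single over double colored cells (edgeR, points) with 95% intervals (lines) for the 34 tested genes of the pathway list, ordered by size, with the 7 at an unadjusted p under 0.05 in red. Ccna2 and Ccnb2 are at the top with 0.99 each, E2f6 is at the bottom with −0.57, and 24 of 34 points lie right of 0.

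A list of 22 cyclins and kinases with roles in transcription, neurons or cell signalling was read the same way. By edgeR 0 of 22 passed and 0 had an unadjusted p under 0.05, against 2.48% and 15.1% of all genes. DESeq2 and limma-voom called 0 (4.46% and 2.03% of all genes), with 1 at an unadjusted p under 0.05 each. Of the 22 log2 fold changes 11 were positive, with a median of −0.001. The positive ones with the smallest p were Cdk14 (0.57 ± 0.35), Ccnk (0.26 ± 0.18), a partner of the transcription kinase Cdk12, and Cdk8 (0.13 ± 0.21), a kinase of the Mediator complex. Without single colored replicate 1 the Cdk14 value was 0.17, and without double colored replicate 3 it was 0.32. The negative ones were Cdk10 (−0.72 ± 0.35), Ccng1 (−0.34 ± 0.18), a target of the tumor suppressor Trp53, and Ccnt1 (−0.22 ± 0.14), the partner of Cdk9 in transcription elongation. Ccng1 stood at 170 to 282 CPM in single colored and 290 to 330 CPM in double colored libraries. Ccnt1 stood at 19.3 to 24.535 CPM and 24.542 to 28.4 CPM. These 2 of the 22 genes were lower in single colored cells without overlap. Among all tested genes 3.76% were, and 9.14% did not overlap in either direction. Ccng1 and Ccnt1 both turned positive with library totals alone (0.12 and 0.27).

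Markers of cells in cycle, of whatever cell type, were read beside these genes. Mki67, Top2a, Birc5 and Pcna summed to 47.8 to 81.5 CPM in single colored and 35.2 to 67.2 CPM in double colored libraries. All 4 had positive log2 fold changes (0.30, 0.51, 0.20 and 0.01), and 0 passed by edgeR, DESeq2 or limma-voom, with 0 at an unadjusted p under 0.05 by each. With the replicate block 0 passed and 2 had an unadjusted p under 0.05, against 7.53% and 20.7% of all genes. Library totals alone called 1, and 11.2% of all genes. The leukocyte sums given above did not overlap between groups, and the part of leukocytes or other cells in the levels of the cyclins and kinases was not tested. Endothelial genes (Pecam1, Cdh5, Kdr, Tek, Tie1) summed to 108 to 134 CPM in single colored and 115 to 153 CPM in double colored libraries, and smooth muscle and pericyte genes (Acta2, Myh11, Tagln, Pdgfrb, Rgs5, Cspg4) to 227 to 319 CPM and 292 to 400 CPM, with none called in either list by edgeR (0 and 1 at an unadjusted p under 0.05, also by DESeq2 and limma-voom, which called 0). All 9 heart muscle genes had a log2 fold change below 0 (median −0.44), and 0 passed by edgeR (2 at an unadjusted p under 0.05), DESeq2 or limma-voom (6 each). Of all 12466 genes, 15.1% had an unadjusted p under 0.05 by edgeR, 1964 genes by DESeq2 and 1889 by limma-voom. With the replicate block 2 of these 9 were lower, where 2.57% of all genes were, and 4 of the 6 fibroblast and 10 of the 11 leukocyte genes were higher, where 4.97% of all genes were.

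In the authors' deposited table, whose log2 fold changes are of double over single colored cells and so have the opposite sign to those above, none of the 10 genes had a p under 0.05. The smallest in the authors' deposited table was that of Ccnb1, with a log2 fold change of −1.34 of double over single colored cells, p = 0.0639 and FDR = 0.532 by a test that no source used here names. That of Ccnd2 in the authors' deposited table was −0.26 with p = 0.176. Of 15711 genes with a p in the authors' deposited table, 0 had an FDR under 0.05 and 1535 a p under 0.05.

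**Figure D5:**
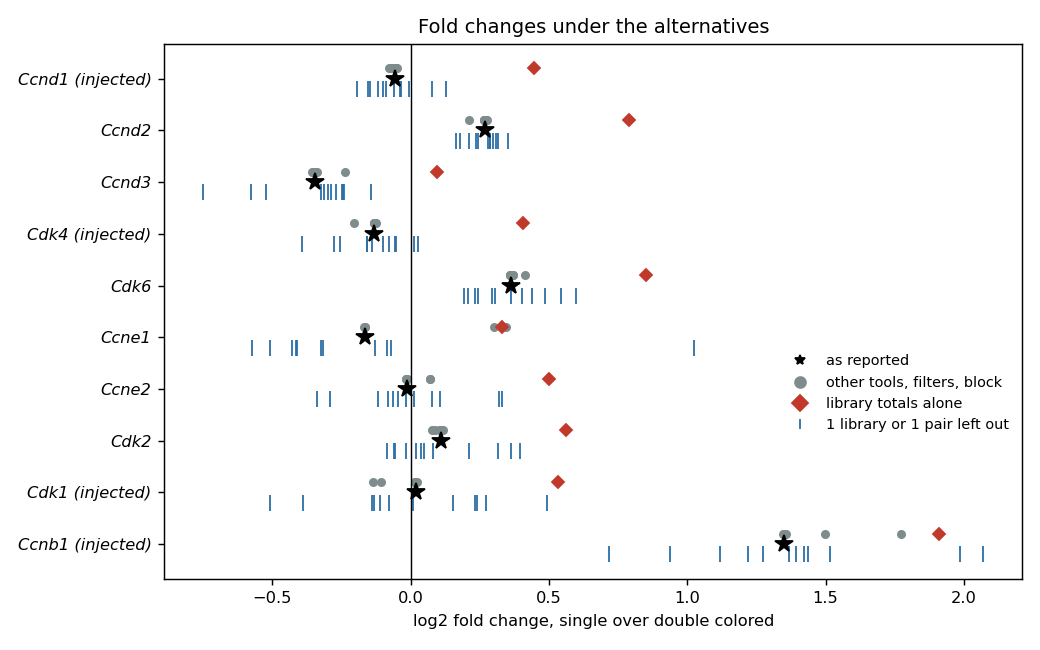
Log2 fold change of single over double colored cells for the 10 genes as reported (star) and under other tools, filters and the replicate block (grey points), library totals alone (red diamonds) and with 1 library or 1 numbered pair left out (blue ticks). Library totals alone move all 10 genes to the right, Ccnd2, Cdk6 and Ccnb1 stay right of 0 under every setting, and Ccne1 reaches 1.02 without double colored replicate 4.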

How the data were processed

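RNA from the miRNeasy Micro Kit was amplified into libraries with the Ovation RNA-seq System v2, per the labels' protocols. STAR 2.5.2b (build mm9) was the aligner and featureCounts (Subread) the counter, per the submitters' processing notes. The deposited values are whole raw read counts per gene, per the file headers, handled in the place of estimated counts with nothing rounded. The authors' deposited log2 fold changes, p-values and FDR were copied, and 24 further columns of per-sample values were not used. Symbols were matched to GENCODE vM21 for 32919 of 37991 identifiers.

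All 8 libraries were fitted with edgeR 4.0.16 (R 4.3.3): filterByExpr with a minimum count of 10 (here 0.368 CPM in 4 libraries), TMM factors (0.953 to 1.44 in single colored, 0.733 to 0.972 in double colored libraries), robust quasi-likelihood F-test, Benjamini-Hochberg adjustment over 12466 genes at 0.05. Standard errors and 95% intervals derive from the F statistic. The code was tested on simulated data. DESeq2 1.42.0, limma 3.58.1, other scalings and filters, the replicate block and leaving out libraries or pairs were 20 alternatives. Genes were named by rule: the 10 genes, of the pathway list up to 5 and of the other cyclins and kinases up to 3 per direction by p, 3 genes most like each injected gene, overlapping genes and cell type markers. The genes and lists were chosen with earlier results of these data known.

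Both groups carry replicate numbers 1 to 4. Deviations from the group means correlated across genes by 0.126 to 0.257 between same-numbered libraries and by at most 0.108 between others, so by the rule that every pair exceeds 0.1 the numbers count as pairing the libraries. The main fit has no replicate term, and the block is 1 of the alternatives. What a number marks is not stated in the labels.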

Additional observations from a re-analysis of the deposited data

Results flagged for a closer look

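In 2 of 52 groups of 4 libraries, formed by the named cyclins, kinases and pathway genes in each group, 1 library stood apart by the ratio of its gap to the group's range (past Dixon's 95% critical value), where chance flags about 1 in 20. Ccne1 stood at 0.655 CPM in single colored replicate 1, a ratio of 0.844, against 0.349 to 0.397 CPM in the other 3 single colored libraries. Cdk14 stood at 9.09 CPM in single colored replicate 1, a ratio of 0.920, against 3.85 to 4.27 CPM in the other 3, and its log2 fold change was 0.17 without that library, against 0.57 with it.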

How the results depend on the processing

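The 10 genes kept an adjusted p above 0.05 under all of the 20 alternatives in which they were tested, except Ccnb1 (1.91) and Ccnd2 (0.79) with library totals alone. The totals moved the median of all genes by 0.48 and called 2 of the 10 genes, 7 of the 34 pathway genes and 1390 genes in all. Totals also turned Cdk4 to 0.41, Ccnd1 to 0.45, Ccnd3 to 0.095, Ccne1 to 0.33, Ccne2 to 0.50, Wee1 to 0.15, Fbxw7 to 0.059, Cdkn1c to 0.18, Tfdp2 to 0.30, Ccnt1 to 0.27 and Ccng1 to 0.12. DESeq2 called 556 genes and 1 pathway gene, no filter 805 genes and 1 pathway gene (Ccna2), and the replicate block 939 genes and 4 pathway genes. The replicate block changed no call among the 10 genes and turned Cdk1 to −0.11, Ccne1 to 0.30 and Ccne2 to 0.072. Limma-voom turned Cdk1 to −0.13, Ccne1 to 0.34 and Ccne2 to 0.071.

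With 1 library left out, 134 to 304 genes were called, none of them among the 10 genes or the pathway list. Log2 fold changes then ran from −0.39 to 0.27 for Cdk1, −0.28 to 0.027 for Cdk4, −0.15 to 0.077 for Ccnd1, −0.061 to 0.40 for Cdk2, −0.29 to 0.32 for Ccne2 and −0.51 to 1.02 for Ccne1, the last above 0 without double colored replicate 4. Those of the other 4 genes kept their sign, at 0.94 to 1.99 for Ccnb1, 0.18 to 0.32 for Ccnd2, −0.58 to −0.24 for Ccnd3 and 0.21 to 0.54 for Cdk6. With both replicates of 1 number left out, 146 (number 1), 138 (2), 200 (3) and 94 (4) genes were called, again with none of the 10. This turned Cdk1 to −0.51 without number 1 and −0.14 without 2, Cdk4 to 0.012 without 1, Ccnd1 to 0.13 without 4, Cdk2 to −0.016 without 2 and −0.085 without 4, Ccne2 to 0.33 without 1 and 0.077 without 2, and Cdkn1c to 0.043 without 3. Without a number, Ccnb1 ran from 0.72 to 2.07, Ccnd2 from 0.16 to 0.35, Ccnd3 from −0.75 to −0.14 and Cdk6 from 0.19 to 0.60. The causes were not tested.

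Ccne1 was not tested without mitochondrially encoded genes or without both replicates 4, and 6 of the 10 genes were tested under the filter of 1 CPM in 4 libraries. Counts were low for Ccnb1, Ccne1 and Ccne2, at most 48, 32 and 35 reads in a library.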
